A study of Mus musculus with 5 samples.

Results

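The sortilin family comprises the receptors encoded by Sort1, Sorl1, Sorcs1, Sorcs2 and Sorcs3. The 5 genes were taken by symbol from RNA-seq tables of mouse embryonic fibroblasts (MEFs), which are connective-tissue cells grown out of dissociated embryos. They occupied 6 loci of the 22894 loci that carry a single gene symbol, because Sorcs1 has 2 loci, and no locus joined a member to another gene. The family was selected on its scaled FPKM over these same libraries, where some members part the lines, so levels and ratios of the members are a description and carry no test.

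Expression was measured by RNA-seq of total RNA in 5 libraries of MEFs on a C57BL/6 background at passage 30. The line labelled MP was made to overexpress Meis1 and Prep1 together, the line labelled M overexpressed Meis1, the line labelled P overexpressed Prep1, and the EV line was infected with an empty vector. These 4 lines all carry the Prep1 hypomorphic genotype, an allele of reduced Prep1 expression. The WT line is Prep1 wild-type, and its label names no vector. Meis1 and Prep1 (gene Pknox1) are homeobox transcription factors of the TALE class. The protocol names hypomorphic embryos of day 14.5 as the source in the entry of every line, WT included, whose genotype label says wild-type. The sources used here give neither the promoter that drives the added genes nor whether a line is a clone or a pool. Each group held 1 library, so no difference between lines can be set against a spread between replicates. Every value below compares libraries, not conditions, and neighbours in an order of levels cannot be told apart from unreplicated libraries.

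All members of the family carry a luminal VPS10P domain, a beta-propeller that binds cargo, and a short cytosolic tail that binds sorting adaptors. They carry proteins between the trans-Golgi network, endosomes, lysosomes and the cell surface, and some act at the surface as receptors for neurotensin and proneurotrophins. Sortilin and SorLA (the product of Sorl1) are found in many tissues, whereas the SorCS receptors are best known from neurons. GGA and AP-1 adaptor complexes load such receptors at the trans-Golgi network, and the retromer complex returns them from endosomes. The adaptor complex AP-1 shares only its name with the transcription factor AP-1 of the study's title.

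The study's title concerns binding sites of the transcription factor AP-1, so the annotated promoters of the members with the largest gap between hypomorphic and wild-type cells are shown. RefSeq promoter sequences (build GRCm38.p6) matched 3 of the 5 members, namely Sorl1, Sorcs1 and Sorcs3. Each holds 250 bases before and 50 bases after an annotated start. Lower case marks the bases before the start and capitals mark the transcribed bases, both 5′ to 3′ on the gene's strand. Sorl1 lies on the minus strand at chr9:42124248-42124547 and Sorcs1 on the minus strand at chr19:50678597-50678896.
Sorl1: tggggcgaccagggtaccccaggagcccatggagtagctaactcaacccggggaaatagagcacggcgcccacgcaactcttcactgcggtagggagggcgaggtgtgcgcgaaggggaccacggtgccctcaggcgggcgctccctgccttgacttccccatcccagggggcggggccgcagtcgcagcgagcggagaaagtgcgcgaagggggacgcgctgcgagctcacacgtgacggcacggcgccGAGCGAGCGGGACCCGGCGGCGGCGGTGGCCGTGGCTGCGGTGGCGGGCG
Sorcs1: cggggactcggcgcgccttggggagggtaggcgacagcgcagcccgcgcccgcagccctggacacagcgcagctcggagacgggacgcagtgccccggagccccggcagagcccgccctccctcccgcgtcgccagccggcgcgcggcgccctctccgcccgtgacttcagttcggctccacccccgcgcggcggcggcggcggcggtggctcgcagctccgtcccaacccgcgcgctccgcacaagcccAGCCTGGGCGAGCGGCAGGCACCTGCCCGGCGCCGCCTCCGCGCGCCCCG

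On both strands these windows were searched for the AP-1 element TGANTCA, the cyclic-AMP response element TGACGTCA, the Meis element TGACAG and the Pbx-Prep element TGATTGAC. None of the 4 letter strings occurred in the Sorl1 or Sorcs1 windows, nor in those of a second Sorl1 start and of Sorcs3. Over the 32851 RefSeq promoters of the same length, TGANTCA occurred in 7.81%, TGACAG in 19.2%, TGACGTCA in 1.79% and TGATTGAC in 0.77%. The Sorcs1 window held 50 CpG dinucleotides at 80.7% G and C, and the Sorl1 window 37 at 72.3%. No promoter property was compared over the whole family, since only 3 of 5 members had a sequence.

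Levels are given in scaled units, the FPKM of a locus after each library was set to an upper quartile of 10 over single-gene loci at 1 FPKM or more in any library. This was needed because the deposited upper quartile was 9.63 FPKM in MP, 429 in M, 11.6 in P, 157 in EV and 12.2 in WT. Among the hypomorphic lines Meis1 followed the labels, at 15.4 scaled units in MP and 16.8 in M, against 8.86 in P and 8.32 in EV. WT, whose label names no vector, lay between them at 12.4. Pknox1 did not follow the labels, at 0.569 in MP, 3.25 in M, 0.554 in P, 2.16 in EV and 11.0 in WT. The libraries labelled MP and P therefore go against the Prep1 part of their labels, and every direction drawn from them carries that limit. Olfactory and vomeronasal receptor loci, which act in the sensory neurons of the nose, were above 0 at 13.1% of 1447 loci in MP, 70.4% in M, 11.4% in P, 99.8% in EV and 17.6% in WT. Their 95th percentile was 0.0976 scaled units in MP, 0.867 in M, 0.0509 in P, 0.567 in EV and 0.0693 in WT, and these levels are used below as a floor. Of the fibroblast markers measured, 7 of 7 stood at 5 or more in every library, Col1a1, Col1a2, Vim and Thy1 among them. Of the neuronal markers, 7 of 9 stood under 1 in every library, and their summed level was 21.6 in MP, 21.7 in M, 21.0 in P, 25.5 in EV and 29.3 in WT. Tubb3 and Map2 made up nearly all of that sum, and the part of this signal in the levels of the SorCS genes was not tested.

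Sort1 was the family member that parted the hypomorphic lines from each other. Sort1 (XLOC_032206) encodes sortilin, which sorts lysosomal hydrolases and progranulin and serves with the neurotrophin receptor p75NTR in proneurotrophin signalling. It stood at 5.70 scaled units in MP, 0.573 in M, 5.73 in P, 0.859 in EV and 4.20 in WT. Libraries labelled as receiving Prep1, and wild-type cells, were thus high, and the EV and M libraries were low. The low values lie near the floor, since 14.5% of the sensory receptor loci reached the Sort1 level or more in M and 1.17% in EV, against 0.0691% each in MP, P and WT. M and EV, low in Sort1, are also the libraries with the high deposited FPKM and the signal at receptor loci, so a Prep1 effect on Sort1 cannot be told apart from that division of the libraries.

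By label, the comparisons of P with EV and of MP with M ask what added Prep1 changes, first without and then with added Meis1. Pknox1 was lower on the Prep1-labelled side of both, at 0.554 in P against 2.16 in EV and 0.569 in MP against 3.25 in M. The comparisons thus follow the labels and not the measured Pknox1 level. On the scale log2((level + 1)/(level + 1)), which understates ratios of low levels, Sort1 differed by 1.86 between P and EV and by 2.09 between MP and M. The difference of these 2 values was 0.24, and each of the 4 libraries entered it once. It differed by 1.85 between MP and EV. Sort1 ranked 1st of 11034 genes kept in MP against EV, 8th of 11163 in P against EV and 2nd of 10855 in MP against M, counted from the highest ratio. Genes that reached 1 scaled unit in either library were kept, and a log2 ratio of at least 1 in size was called apart, that is 2-fold. In each of these comparisons 1 of 3 members kept was apart, Sort1, and it was higher. Of all genes kept, 2.5% were apart in P against EV and 0.654% were apart and higher, 1.51% and 0.23% in MP against M, and 2.26% and 0.208% in MP against EV. This direction reverses on FPKM as deposited, where Sort1 gave -1.05 in P against EV, -1.94 in MP against M and -1.12 in MP against EV. In the comparisons with EV this is log2((FPKM + 1)/(FPKM + 1)), with the EV values deposited beside that library. In MP against M it is the log2 ratio of MP to EV minus that of M to EV. The median over all genes on that deposited scale was -3.36, -5.06 and -3.44 in the same order, and Sort1 stood above it. The divisor of a library applies to all its genes, so this restates the scaled ranks and adds no separate support.

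Within a library no scaling is needed, and FPKM is per length, so the deposited values of members were set against each other. Whether these values are proportional to transcript amount was not tested. Their range is narrow at the top. With the upper quartile at 10 scaled units, Col1a1 stood at 16.3 in MP, and Sorcs2 at 18.4 in P exceeded 98.1% of genes. Sort1 stood at 38.5% of the Sorcs2 FPKM in MP and 3.79% in M. The same share was 31.1% in P and 5.23% in EV, against 26.3% in WT. The order of the libraries on this ratio parts MP, P and WT from M and EV, as the scaled levels do.

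The authors' deposited tables called Sort1 apart from EV in MP (q-value 1.78e-11) and P (q-value 1.57e-10), and also in WT, where q is listed as 0. In all 3 tables the call was for a lower FPKM outside EV, the direction of the library shift. Both Sorcs1 loci and Sorcs2 were called lower in the same 3 tables. Sorl1 was marked NOTEST for MP and P, and was tested but not called in WT (q-value 0.739). Of the 22894 single-gene loci, 9438 were called in MP, 9913 in P and 10216 in WT. Of these, 1, 1 and 11 were higher than EV, so such a call is not particular to Sort1. In the authors' deposited table for M the Sort1 test is marked FAIL, as are the tests of Sorl1 and of both Sorcs1 loci. These tests set 1 library against 1.

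**Figure D1:**
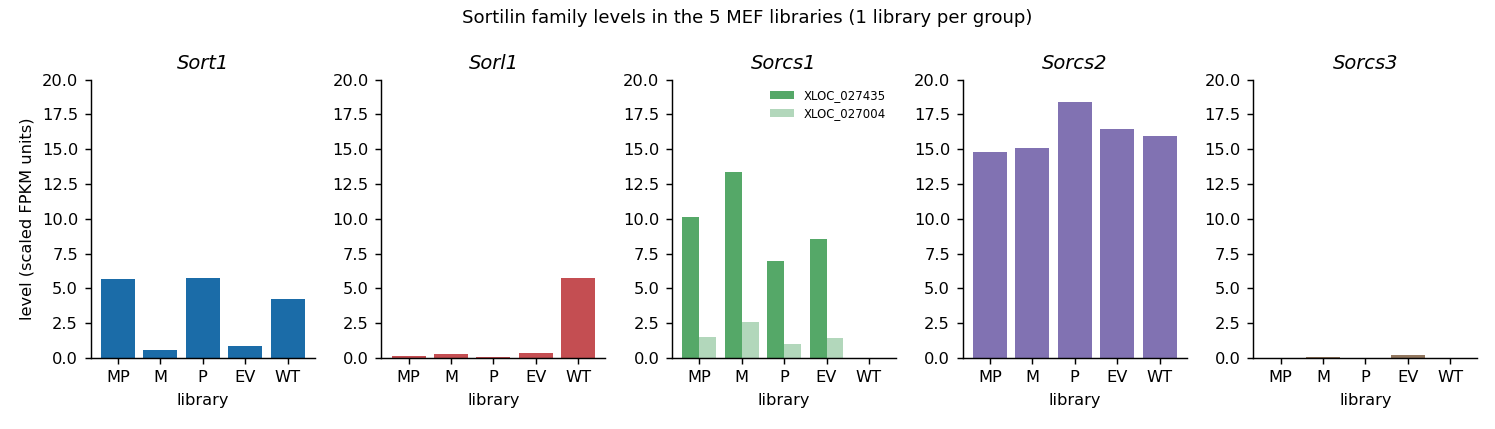
Bars give the level of each member in scaled FPKM units (vertical axis, from 0) in each library (horizontal axis, 1 library per group); the pale bars of Sorcs1 are its second locus. Sort1 stands at 5.70, 5.73 and 4.20 in MP, P and WT and under 1 in M and EV, Sorl1 is high in WT alone at 5.74, and Sorcs1 is at 0.0159 there.

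Sorl1 was near the floor in all 4 hypomorphic lines and expressed in wild-type cells. Sorl1 (XLOC_056027) encodes SorLA, which holds the amyloid precursor protein in the Golgi and endosomes with the help of retromer. It stood at 0.0998 scaled units in MP, 0.276 in M, 0.0441 in P and 0.372 in EV, against 5.74 in WT. Of the sensory receptor loci, 3.52% reached the Sorl1 level in MP, 42.2% in M, 5.87% in P and 25.6% in EV, against 0.0691% in WT. On scaled levels every hypomorphic library stood below WT. The share of all genes with this order was not counted, and genotype, line of origin and infection cannot be told apart in it. The Sorl1 level was under the 95th percentile of the receptor loci in M, P and EV, and in MP it stood just above it.

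Sorcs1 showed the opposite pattern. Sorcs1 encodes SorCS1, known in neurons for trafficking of the amyloid precursor protein and of synaptic adhesion proteins, and in mice for an influence on insulin secretion. Its main locus (XLOC_027435) stood at 10.1 scaled units in MP, 13.4 in M, 6.96 in P and 8.52 in EV, against 0.0159 in WT. Of the sensory receptor loci 0% reached this level in any hypomorphic library, against 12.0% in WT. All 4 hypomorphic lines were therefore above the floor, and wild-type cells were not.

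A second Sorcs1 locus (XLOC_027004) followed the first at a lower level, with 1.52 scaled units in MP, 2.60 in M, 0.989 in P and 1.40 in EV, and was listed at 0 in WT. It held 15.0% of the FPKM of the main locus in MP, 19.5% in M, 14.2% in P and 16.4% in EV. In the order of the tables it lies between Sorcs3 and Ins1, which GENCODE M21 places on the plus strand of chromosome 19. The main locus lies between Itprip and Xpnpep1, which like Sorcs1 itself are on the minus strand. The files give neither strand nor coordinates, and the sources used here do not say whether the library kit marks strand, so reads of Sorcs1 and of an antisense transcript cannot be told apart.

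EV was compared with WT to ask how hypomorphic cells differ from wild-type cells; genotype, line of origin and infection cannot be told apart in it. Of the 4 members kept, 3 were at least 2-fold apart on the log2 scale of scaled levels, where 9.51% of 11657 genes kept were apart, 3.2% higher and 6.31% lower in EV. Sorcs1 was higher in EV, with a log2 ratio of 3.23, the 3rd highest of all genes kept. Sorl1 (-2.30) and Sort1 (-1.48) were lower in EV. As deposited, the log2 ratio of EV over WT was 7.21 for Sorcs1 and -0.08 for Sorl1, and for Sort1 it turned to 1.40, against a median of 3.21 over all genes on the deposited scale.

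The other hypomorphic lines gave the same order for Sorl1 and Sorcs1 against the shared WT library. The log2 ratio of Sorl1 over WT was -2.62 for MP, -2.40 for M and -2.69 for P, and that of Sorcs1 was 3.45 for MP, 3.82 for M and 2.97 for P. For Sort1 the lines split, at 0.37 for both MP and P over WT but -1.72 for M. Genes apart made up 10.2% of those kept in MP against WT, 10.5% in M against WT and 8.32% in P against WT. Of 4 members kept, 2 were apart in MP, 3 in M and 2 in P.

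The comparisons of M with EV and of MP with the library labelled P ask what added Meis1 changes. None of the 2 members kept in M against EV was apart (0.924% of 11144 genes kept), and none of 3 in MP against P (1.01% of 10771). Sorcs1 gave log2 ratios of 0.59 in M against EV and 0.48 in MP against P, the largest of the members in both. As deposited, the Sorcs1 ratio in M against EV was 2.09. For MP against P the deposited value was 0.43, the log2 ratio of MP to EV minus that of P to EV. The EV values in it differ, at 130 FPKM beside MP and 148 beside P, and Sorcs1 itself stood at 9.75 FPKM in MP and 8.08 in P. Under scaling to the median the ratio in MP against P was 0.85. The Sort1 level was under 1 in both M and EV, and its log2 ratio in MP against P was -0.01.

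Sorcs2 had the highest FPKM of any single member locus in every library, although in M both Sorcs1 loci added together exceeded it. Sorcs2 (XLOC_040258) encodes SorCS2, a partner of p75NTR in the response to proBDNF. It stood at 14.8 scaled units in MP, 15.1 in M, 18.4 in P, 16.4 in EV and 16.0 in WT. Its log2 ratios lay between -0.29 in MP against P and 0.16 in P against EV over the 6 comparisons. Under scaling to the median the ratio in MP against P turned to 0.08. The level exceeded that of 85.9% of 11867 genes in MP and 98.1% in P.

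Sorcs3 was not detectable above the floor. Sorcs3 (XLOC_027003) encodes SorCS3, a postsynaptic receptor of neurons, and neighbours Sorcs1 on chromosome 19. It was listed at 0 in MP and stood at 0.0563 scaled units in M, 0.00844 in P, 0.165 in EV and 0.00571 in WT. It was under 1 in every library and entered none of the counts, and the authors' deposited tables mark it NOTEST throughout.

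**Figure D2:**
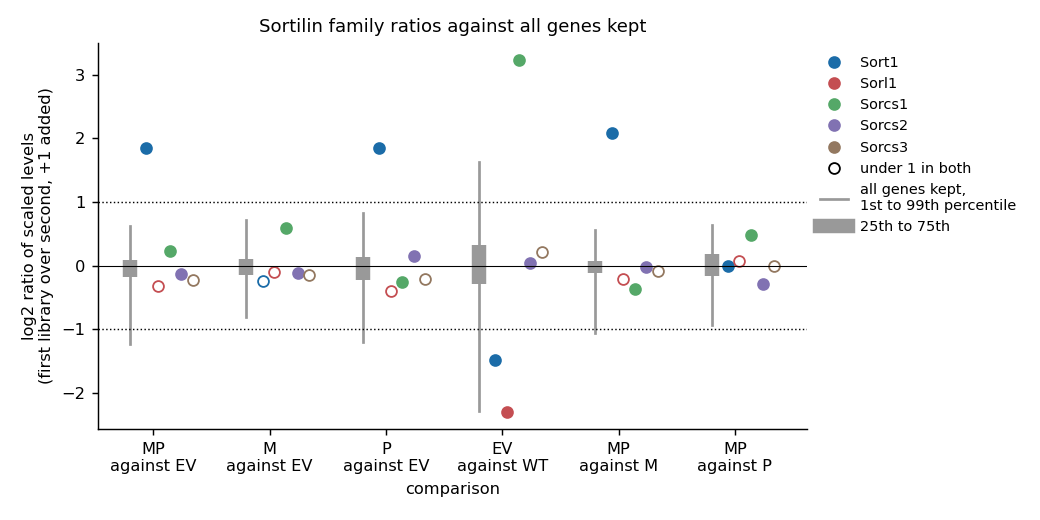
Points give the log2 ratio of scaled levels (vertical axis, first library over second, 1 added to each) of the 5 members in the 6 comparisons (horizontal axis); open points were under 1 in both libraries, and grey bars span the percentiles of all genes kept. Sort1 lies at 1.85 to 2.09 in MP against EV, P against EV and MP against M, a direction that reverses on FPKM as deposited, while Sorcs1 at 3.23 and Sorl1 at -2.30 part EV from WT.

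In deposited FPKM, the make-up of the family therefore differed between lines, also without any scaling. Sorcs2 held 45.9% of the family's summed FPKM in MP, 47.2% in M, 57.3% in P, 59.2% in EV and 61.6% in WT. Sorcs1, with its 2 loci added, held 36.1% in MP, 49.9% in M, 24.8% in P and 35.8% in EV, but 0.0612% in WT. Sort1 held 17.7% in MP, 1.79% in M, 17.8% in P, 3.10% in EV and 16.2% in WT. Sorl1 held 22.1% in WT and at most 1.34% in a hypomorphic line. EV and M thus carried Sorcs1 and Sorcs2, MP and P carried Sort1 beside them, and WT carried Sort1 and Sorl1 beside Sorcs2.

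**Figure D3:**
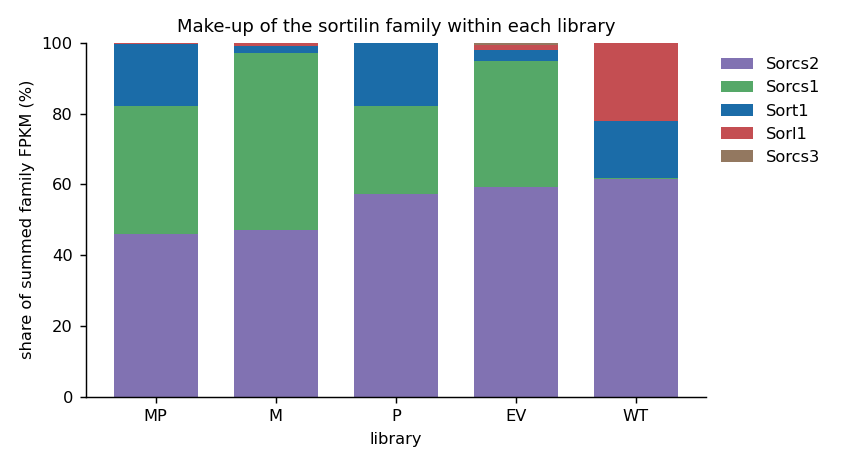
Stacked bars give the share of each member in the summed FPKM of the family (vertical axis, percent) within each library (horizontal axis, 1 library per group). Sorcs1 falls away in WT at 0.0612%, where Sorl1 holds 22.1%, and the Sort1 share is 17.7%, 17.8% and 16.2% in MP, P and WT but 1.79% in M and 3.10% in EV.

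Genes with the most similar pattern were found by the root mean square difference of log2(level + 1) over the 5 libraries, each gene centred on its own mean, among 9039 genes at 5 scaled units or more in 1 library. Nearest to Sort1 was Pcsk6 (difference 0.34), a proprotein convertase, at 4.79 in MP, 1.80 in M, 7.42 in P, 1.56 in EV and 6.13 in WT. Sox11 (0.38), a transcription factor of progenitor cells, Jup (0.44), the junction protein plakoglobin, and Prl2c2 (0.44), a hormone gene of the prolactin family, followed. Each of the 4 was lower in M and EV than in MP, P and WT on scaled levels, as Sort1 was. Nearest to Sorl1 were Ildr2 (0.05), Pla2r1 (0.06), a phospholipase A2 receptor, Ccdc3 (0.07) and Slc25a43 (0.07), all under 1 in the hypomorphic lines and at 5.28 to 6.60 in WT. Nearest to Sorcs1 were Klhl13 (0.23), Igsf10 (0.24), Bicd1 (0.24), an adaptor of the dynein motor, and Rpl39l (0.26), all under 0.5 in WT. For Sorcs2 the differences were 0.02 to 0.03 (Sugp2, Gas2l1, Hps3 and Caml). These likenesses rest on 5 libraries and are a description.

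**Figure D4:**
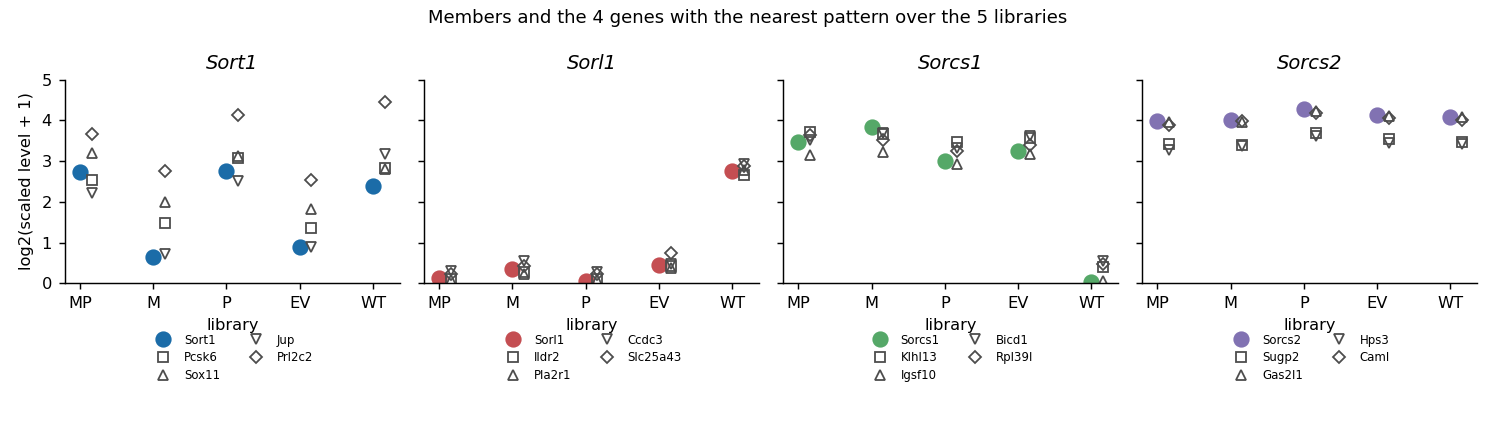
Filled points give log2(scaled level + 1) (vertical axis) of 4 members in each library (horizontal axis, 1 library per group), and open symbols the 4 genes with the nearest pattern. The genes near Sorl1 stand at 5.28 to 6.60 scaled units in WT and under 1 elsewhere, those near Sorcs1 under 0.5 in WT, and those near Sort1 are lower in M and EV than in the other libraries.

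Genes elsewhere in the sorting pathway were taken by list and set beside all genes kept, of which 2.26% were apart in MP against EV, 0.924% in M against EV, 2.5% in P against EV, 9.51% in EV against WT, 1.51% in MP against M and 1.01% in MP against P. Retromer and sorting nexins build the endosome-to-Golgi carrier. Of the list named for them, 12 genes were kept and none was apart in any of the 6 comparisons. These 12 include Vps37a, which is neither a retromer nor a sorting nexin gene. Snx32, a sorting nexin gene of low level, stood at 1.90 scaled units in MP and 4.53 in P (log2 -0.93), and its log2 ratio was -1.09 in MP against WT. Among genes at 5 or more, the retromer core gene Vps35 differed most, at 13.6 scaled units in EV and 6.72 in WT, a log2 ratio of EV over WT of 0.92, followed by Snx1 (0.57) and Vps29 (0.50) in the same comparison. The list's median was 0.27 in EV against WT, beside 0.07 over all genes kept, and -0.14 in P against EV, beside -0.05. None of 15 trans-Golgi adaptor genes was apart either. Gga3, of the GGA family that binds the tails of sorting receptors, stood at 6.07 in MP and 12.8 in P (log2 -0.97), and Pacs1, a sorting connector of the Golgi, at 3.86 in EV and 8.19 in WT (-0.92). Of the other sorting receptors of lysosomal enzymes, 3 of 3 kept were within 2-fold in all 6 comparisons, with M6pr, the cation-dependent mannose 6-phosphate receptor, at 14.4 in MP and 10.5 in P (0.41). Igf2r, also in that list, had no single-gene locus and did not enter.

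The LDL receptor family, endocytic receptors that share cargo with sortilin and SorLA, had 12 to 14 members kept. Lrp1b, a large endocytic receptor, stood at 3.07 in MP, 8.29 in M, 4.97 in P, 9.20 in EV and 3.26 in WT, giving log2 ratios of -1.32 in MP against EV, -1.19 in MP against M and 1.26 in EV against WT. It was lower in MP, P and WT than in M and EV, the reverse of Sort1. Lrp4 (-1.43), a receptor of the neuromuscular junction and of Wnt signalling, Lrp3 (-1.06) and Vldlr (-1.02), a reelin and lipoprotein receptor, were lower in EV than in WT. In all, 1 of 14 was higher and 3 lower in EV against WT, where 3.2% of all genes kept were higher and 6.31% lower, and the list's median was 0.03 beside 0.07 over all genes kept.

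Among ligands, cargo and co-receptors, Psap, which encodes the lysosomal protein prosaposin carried by sortilin, stood at 15.0 in MP, 16.1 in M, 9.57 in P, 21.2 in EV and 8.25 in WT. Its log2 ratio was -1.07 in P against EV and 1.26 in EV against WT. Lpl, the lipoprotein lipase bound by sortilin and SorLA, stood at 0.68 in EV and 5.29 in WT (-1.90), with at most 0.25 in MP, M and P. Clu (-1.57), the chaperone clusterin, Aplp1 (-1.96), a relative of the amyloid precursor protein, and Ctsh (-1.01), the lysosomal protease cathepsin H, were also lower in EV than in WT. In this list 1 of 17 was higher and 4 lower in EV against WT (median 0.11), where 9.51% of all genes kept were apart. In P against EV 0 of 15 was higher and 1 lower (median -0.13), beside 2.5% of all genes apart, and none of 14 was apart in M against EV, MP against EV or MP against M. Ngfr, which encodes p75NTR, was under 0.5 in every library. Of the neurotrophin list, Ntrk3, the neurotrophin-3 receptor TrkC, was apart, at 3.13 in EV and 0.99 in WT (1.05) and at 4.24 in MP and 1.61 in P (1.0). Bdnf, the gene of brain-derived neurotrophic factor, stood between 10.9 and 13.2 in all libraries.

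Among convertases and sheddases, which cut the family's propeptides and ectodomains, 1 of 10 kept was apart, Pcsk6, in 4 of the 6 comparisons. Its log2 ratio was 1.18 in MP against EV, 1.72 in P against EV, 1.05 in MP against M and -1.48 in EV against WT, where 2.26%, 2.5%, 1.51% and 9.51% of all genes kept were apart, in that order. Adam10 and Adam17, the sheddases of sortilin and SorLA, stood between 10.8 and 15.9 scaled units in all libraries. As deposited these directions move with the libraries' shift, and they are given relative to it. Furin, also in the list of convertases, had no single-gene locus and did not enter.

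**Figure D5:**
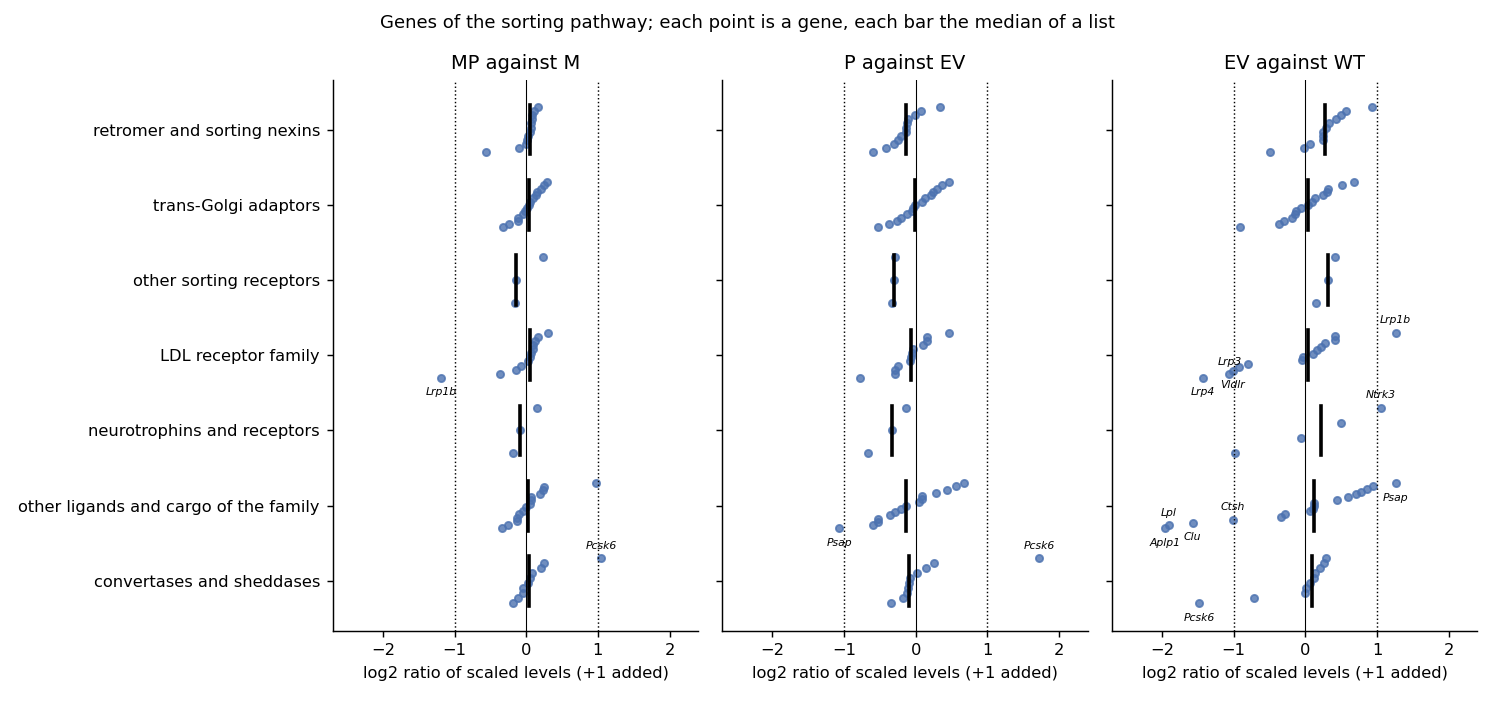
Each point is the log2 ratio of scaled levels (horizontal axis, first library over second, 1 added to each) of a gene of the sorting pathway kept in that comparison, by list (vertical axis), for MP against M, P against EV and EV against WT; bars mark list medians and genes at least 2-fold apart are named. Retromer and adaptor genes lie within the dotted 2-fold lines, and most named genes lie in EV against WT.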

How the data were processed

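Libraries were sequenced on an Illumina platform from total RNA, per the labels' protocols, and grouped by sample title. There are 4 deposited tables of 61082 loci, and each pairs EV with another library. TopHat, Cufflinks, Cuffdiff and build mm9 are named in the submitters' processing notes; their versions, the annotation and the normalisation are not given in the sources used here. The authors' FPKM stand in the value columns, as read from the Cuffdiff layout. The p-value and q-value of each locus come from the authors' own test. Read counts are not given, so no counting interval was made and depth is unknown.

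Members and gene lists were chosen with earlier results of these data known. Loci without a symbol (37277) or joining several symbols (911) were left out, except that joined loci entered 1 alternative. For a symbol with several loci the one with the highest mean log2 level was used. The EV column of the M table served for all values but the log2 ratios as deposited and the alternative on EV columns. The other EV columns equal it times 0.972 (MP table), 1.10 (P table) and 1.12 (WT table), within 1% at 99.4% of loci or more. Log2 ratios to EV as deposited used the EV column of the same table. Between libraries other than EV, the deposited log2 ratio is the difference of their log2 ratios to EV. Levels were scaled as described, 1 was added before taking log2, and genes kept at 1 or more in either library were called apart at a log2 ratio of 1. The procedure was run on simulated data made from the P library, with a constant factor per library and small random noise. These data held no added signal at receptor loci, so they cannot show how such signal in M and EV affects the ratios. All members, Meis1, Pknox1, list genes at least 2-fold apart (otherwise the 3 largest) and the 4 genes nearest in pattern are named; other genes, and the comparisons of MP, M and P with WT, were picked with their values in view. The design listed the last EV comparison as WT against EV; ratios here are EV over WT. Alternatives are a pseudocount of 0.1, no scaling, median scaling, a minimum of 5 or none, the EV column of each table, and summed loci. Python 3.11.15, pandas 2.3.3 and numpy 2.4.6 were used.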

Additional observations from a re-analysis of the deposited data

Results flagged for a closer look

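The log2 ratio of Sorcs2 had opposite signs in the 2 comparisons that add the Prep1 label, at -0.026 in MP against M and 0.16 in P against EV, on scaled levels. Both values are small, each comparison sets 1 library against 1, and the difference between them was not tested. Scaled to the median, the ratio in MP against M was 0.33, so its sign there depends on the scaling.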

How the results depend on the processing

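Counts of members at least 2-fold apart moved by more than 1.5 times only without scaling. There they became 5 in MP against EV, 2 in M against EV, 5 in P against EV and 5 in MP against M, instead of 1, 0, 1 and 1. Of all genes kept without scaling, 99.97%, 74.1%, 99.93% and 99.86% were apart in the same order. On that scale the log2 ratio of Sort1 reversed to -1.12 in MP against EV, -1.05 in P against EV and 1.40 in EV against WT. In MP against M the difference of its log2 ratios to EV was -1.94. Under the other alternatives, with a scaling to the median ratio of genes added after seeing the data, the ratio of Sort1 was 1.86 to 2.60 in P against EV, 2.09 to 3.11 in MP against M and -2.16 to -1.21 in EV against WT. In EV against WT that of Sorl1 was -3.63 to -2.01 and that of Sorcs1 3.23 to 6.22. That of Sorcs1 in MP against P was 0.43 to 0.85. Sorcs2 changed sign with the scaling in MP against EV (-0.15 to 0.27), MP against M (-0.03 to 0.33), MP against P (-0.36 to 0.08) and EV against WT (-0.11 to 0.36). With a minimum of 5, Sort1 was not kept in EV against WT, which left 2 members apart instead of 3. Median scaling moved the median of all genes to 0.36 in MP against EV, 0.37 in EV against WT, 0.33 in MP against M and 0.40 in MP against P. There the share of higher genes among those apart was 40.4%, 57.0%, 32.3% and 72.7%, instead of 9.24%, 33.6%, 15.2% and 24.8%. No paired analysis was possible because each group holds 1 library. Unknown depth limits all levels under 1.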

Other observations

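Sort1 lies among Psma5, Mybphl and Psrc1 on chromosome 3 in the RefSeq gene order, chosen for a look after the values of Sort1 were seen. Psrc1, which encodes a spindle-associated protein and whose human counterpart neighbours SORT1 at a locus tied to blood lipids, stood at 2.91 scaled units in MP, 2.11 in M, 4.85 in P, 2.57 in EV and 9.02 in WT. Its log2 ratio was 0.71 in P against EV, 0.33 in MP against M and -1.49 in EV against WT. Psma5, a proteasome subunit gene on the other side, stood at 10.4 in MP, 8.62 in M, 7.94 in P, 10.0 in EV and 7.02 in WT, and Mybphl was listed at 0 in all libraries but EV (0.0595). The neighbours of Sorl1 at 1 scaled unit or more, Sc5d, a cholesterol synthesis gene, and Ubash3b, stood at 15.1 and 13.2 in EV and at 13.2 and 11.9 in WT. The neighbour Xpnpep1 of Sorcs1, a peptidase gene, stood at 17.3 in EV and 12.6 in WT.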
